A study of Macaca mulatta with 24 samples.

Results

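Described here are 35 genes of microglia and complement in the nucleus accumbens core (NAcc), picked by gene symbol among the 17208 gene rows of an RNA-Seq table. All 35 were found, all 35 averaged at least 1 TPM (transcripts per 1000000) over the 24 animals, and 23 averaged at least 10 TPM. Microglia are the resident macrophages of the brain, and complement is a cascade of secreted proteins that tags cells and synapses for removal by them. C1q, assembled from the chains of *C1QA*, *C1QB* and *C1QC*, starts the classical arm of the cascade, and C3 is the component on which its arms meet. Microglia are the main source of C1q in the healthy brain and carry integrin receptors for cleaved C3, and in the striatum they survey the synapses of medium spiny neurons.

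The animals were unrelated adult male rhesus macaques from 4 cohorts, trained on drinking panels with schedule-induced polydipsia, and the tissue was a small dissection of the NAcc core taken at necropsy without imposed abstinence. The 8 control animals had water on both spouts and received a maltose dextrin solution to match calories. The other 16 had daily open access to ethanol and water and chose their own intake: the 8 LD* animals averaged between 0.47 and 2.07 g/kg ethanol a day, and the 8 HD* animals between 2.74 and 3.78 g/kg. The HD* animals were 4 of category HD (2.74 to 3.09 g/kg) and 4 of category VHD (3.09 to 3.78 g/kg). Cohorts did not hold every group: the 8 controls came from cohorts 5 (3 animals), 7b (3) and 7a (2), LD* animals from cohorts 7a (3), 7b (3) and 4 (2), and HD* animals from cohorts 5 and 7a (4 in each, 2 HD and 2 VHD). Drinking category followed the animal's own intake and was not assigned.

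Each animal gave 1 library, and the values are the authors' TPM, which add up to between 999998 and 1000000 in every animal, so the read depth behind a value is unknown and no counting error can be given. A TPM value is a share, scaled by gene length, of the polyA-selected RNA of the dissection that was counted on annotated genes. In such tissue, fewer microglia and less RNA per microglial cell cannot be told apart. Differences between groups are given as differences of mean log2(TPM + 1), which understate changes of weakly expressed genes, and were tested with limma over the 13637 genes that averaged 1 TPM or more, adjusting p-values over all of them (Benjamini-Hochberg). Control replicate 6 and HD* replicate 8 stood apart from the rest by the measures given next. By the median correlation with the other animals, control replicate 6 was lowest (0.924). Control replicate 8 (0.951) was as far apart as HD* replicate 8 (0.952) by that measure. In control replicate 6 the 10 striatal neuron markers summed to 768 TPM, against a median of 7483 TPM over all animals, and the 10 oligodendrocyte markers to 10337 TPM, against a median of 3168 TPM. HD* replicate 8 had the lowest scaling factor of the 24 animals (0.70) in the trimmed mean of M-values (TMM), a rescaling that assumes most genes do not change.

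The defining microglial genes were present in every animal, with means of 46.1 TPM for *AIF1*, the gene of the calcium-binding protein IBA1, 34.4 TPM for *CX3CR1*, the fractalkine receptor, 50.9 TPM for the purinergic receptor *P2RY12*, 59.6 TPM for *CSF1R*, the receptor on which microglial survival depends, and 20.8 TPM for *TREM2*, a lipid-sensing receptor. *TMEM119*, a membrane protein used as a microglial marker, was low at 1.56 TPM and ran from 0.424 to 4.52 TPM. Markers of blood monocytes and neutrophils were near 0. Of the 7 listed, 6 were in the table, 0 reached a mean of 1 TPM, and together they summed to between 0.602 and 2.18 TPM in an animal. The 6 perivascular macrophage markers summed to between 11.1 and 31.2 TPM. Not all blood markers were that low: the 10 of T and B lymphocytes summed to between 25.1 and 108 TPM. Those of red blood cells, with 4 of 7 found, summed to between 0.165 and 22.4 TPM.

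The most abundant members were complement and lysosomal genes. *C1QB* averaged 134 TPM, *C1QC* 83.8 TPM, *C3* 81.8 TPM and *C1QA* 75.0 TPM, while *CD63*, a lysosomal membrane protein, and *CD74*, the invariant chain of MHC class II, averaged 129 TPM each. *CD63*, *CD74* and *C3* are also expressed by other brain cells. At the other end stood *TLR2*, a receptor for bacterial lipoproteins, with 1.22 TPM and *PTPRC*, which encodes the leukocyte phosphatase CD45, with 1.11 TPM. TPM is a level per length of transcript, so these levels can be set side by side between genes. The highest animal was between 1.68 times (*CD14*) and 10.7 times (*TMEM119*) the lowest, and most members varied between animals more than most genes: the median member's SD of log2(TPM + 1) lay at percentile 69.1 of all genes tested.

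**Figure D1:**
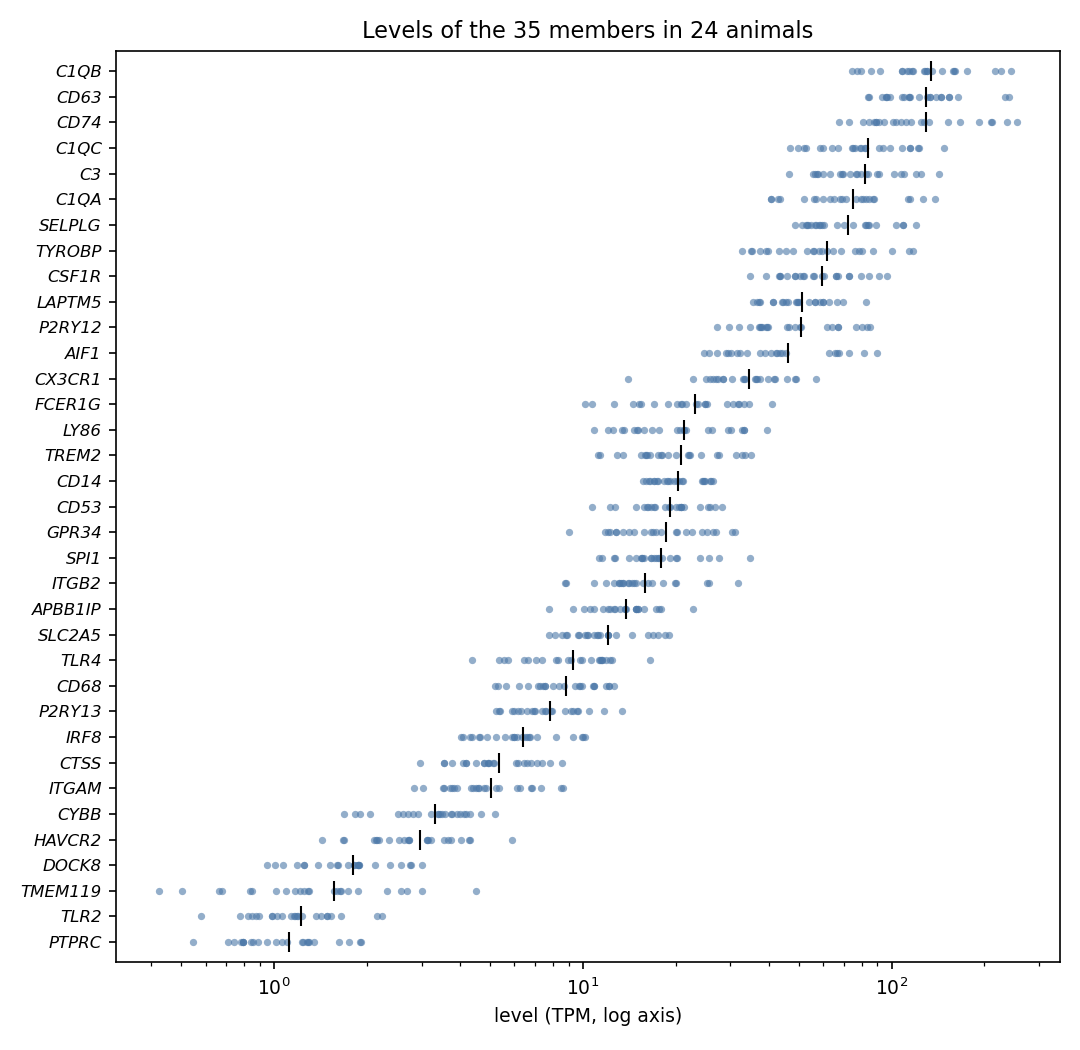
Levels of the 35 members in each of the 24 animals on a log axis of TPM, 1 point an animal, with a black tick at the mean, ordered by mean. *C1QB* leads with a mean of 134 TPM, *PTPRC* is lowest with 1.11 TPM, and *TMEM119* has the widest spread for its level.

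Members varied together from animal to animal. Over the 24 animals, which share tissue dissection and library preparation, the median Pearson correlation of the 595 pairs of members was 0.65, with 530 pairs above 0, against a median of 0.18 over all pairs of genes tested. Relations were examined for 13 pairs of genes whose proteins act together, and 12 of the 13 passed (permutation test with 100000 resamples, two-sided, adjusted over the 13). The test is against no correlation, and the median pair of members was already at 0.65. Passing therefore does not set these pairs apart from other pairs of members, which were not tested. The 3 chains of C1q, whose genes are 3 consecutive entries in a RefSeq annotation of the macaque genome, were the closest: r was 0.95 for *C1QA* with *C1QB* (Spearman's rho 0.93), 0.95 for *C1QA* with *C1QC* (rho 0.92) and 0.95 for *C1QB* with *C1QC* (rho 0.95), each with a permutation p of 1e-05, the smallest these permutations can give, and an adjusted p of 1.44e-05. Without the 2 animals farthest from the median of the first gene, r remained 0.93, 0.93 and 0.95.

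*TREM2* signals through the ITAM adaptor encoded by *TYROBP*, and their levels were correlated at r = 0.90 (rho 0.89, adjusted permutation p = 1.44e-05, and r = 0.89 without the 2 farthest animals). *FCER1G*, the adaptor of Fc receptors, and *TYROBP* gave r = 0.83 (rho 0.85, adjusted permutation p = 1.44e-05, and 0.81 without the 2 farthest). The integrin chains *ITGAM* and *ITGB2*, which form complement receptor CR3, gave r = 0.70 (rho 0.75, adjusted permutation p = 0.000130, and 0.64 without the 2 farthest), and *ITGB2* with *C3*, whose cleavage product CR3 binds, gave r = 0.86 (rho 0.80, adjusted permutation p = 1.44e-05, and 0.80 without them). The transcription factors of the myeloid lineage, *SPI1* and *IRF8*, gave r = 0.83 (rho 0.81, adjusted permutation p = 1.44e-05, and 0.76 without the 2 farthest). Values were similar for *CX3CR1* with *P2RY12* (r = 0.85) and *P2RY12* with *P2RY13* (r = 0.80), a second purinergic receptor, both with an adjusted permutation p of 1.44e-05, and lower for the Toll-like receptors *TLR2* and *TLR4* (r = 0.60, rho 0.63, adjusted permutation p = 0.00229).

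*CSF1R*, a target of the factor encoded by *SPI1*, correlated with *SPI1* at r = 0.47 (rho 0.66, adjusted permutation p = 0.0205). Within groups of 8 animals r was 0.81 among controls, 0.95 for LD* animals and 0.11 for HD* animals, and whether these differ was not tested. HD* replicate 8 had both the highest *SPI1* (34.7 TPM) and the lowest *CSF1R* (39.2 TPM) of the 8 HD* animals. The part of that animal in the low r was not tested. *CD14*, the co-receptor for bacterial lipopolysaccharide, and *TLR4*, its signalling partner, did not pass (r = −0.05, rho 0.04, adjusted permutation p = 0.827). *CD14* and *TMEM119* were also the members that ran against the others, with r of −0.31 and −0.36 with the mean of the other 34, while the remaining members lay between 0.51 for *CD68* and 0.94 for *CTSS*, the gene of the lysosomal protease cathepsin S.

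The first comparison asked whether these genes differed between heavy drinkers and controls. As a summary of an animal, the mean over the 35 members of log2(TPM + 1), centred on the mean over the 24 animals, was used without a test. Controls averaged 0.084 ± 0.37, LD* animals −0.047 ± 0.20 and HD* animals −0.038 ± 0.33 (mean ± SD, n = 8 each). It ran from −0.47 to 0.56 in controls, from −0.35 to 0.27 in LD* and from −0.46 to 0.42 in HD* animals, so the groups overlapped over nearly the whole range. The controls themselves held both the lowest and the highest animal of the study.

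**Figure D2:**
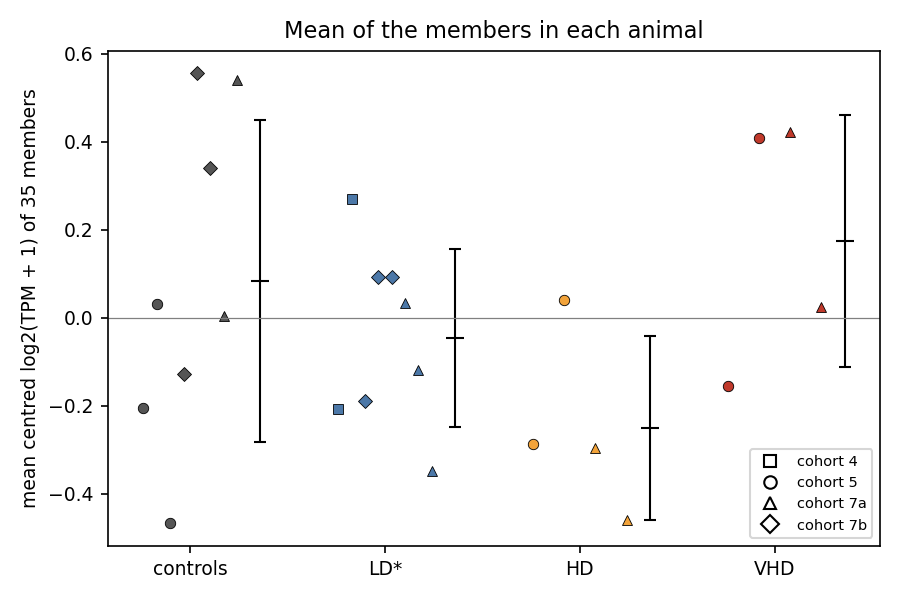
Mean over the 35 members of centred log2(TPM + 1) in each animal, with marker shapes for cohort and the mean ± SD of each group at its right (8 controls, 8 LD*, 4 HD and 4 VHD animals). Controls run from −0.47 to 0.56, 3 of 4 HD animals lie below −0.28 and 3 of 4 VHD animals above 0.

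Between HD* animals and controls, 0 of 35 members passed an adjusted p under 0.05 (limma), as did 0 of the 13637 genes tested (0%), and 0 members had an unadjusted p under 0.05, against 5.68% of all genes (5.29% lower, 0.396% higher). In the paper, DESeq2 on counts did call genes for this contrast at a false discovery rate under 0.05, and *CD63* is named among them. That count test was not run here. The members were lower in HD* animals for 27 genes and higher for 8, with a median difference of −0.14, beside a median of −0.12 and 77.8% of genes below 0 and 22.2% above. Leaving out 1 animal gave between 3 and 15 members higher, with medians from −0.23 to −0.07: 3 were higher without control replicate 3 or HD* replicate 6, 4 without control replicate 1, HD* replicate 4 or HD* replicate 8, 13 without control replicate 5, 14 without HD* replicate 7 and 15 without control replicate 8. After TMM rescaling, 17 members were higher and 18 lower, with a median of −0.02 beside 0.0009 over all genes. The 10 striatal neuron markers were all higher in HD* animals (median 0.44, 0 passed), with sums of 768 to 11996 TPM in controls and 3518 to 10859 TPM in HD* animals, and the 8 astrocyte markers all lower (median −0.20, 0 passed), with sums of 3056 to 9313 TPM and 2187 to 7817 TPM. The 10 oligodendrocyte markers were all lower too (median −0.36, 0 passed), with sums of 2904 to 10337 TPM and 2555 to 5385 TPM, as were 6 of 7 endothelial markers (median −0.17, 0 passed, 3 at an unadjusted p under 0.05). Their part in the result was not tested.

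The group called receptors of resting microglia also held the transporter gene *SLC2A5*, the selectin ligand *SELPLG* and the membrane protein *TMEM119*. Of its 8 genes, 7 were lower in HD* animals and 0 passed. *CX3CR1* had the smallest p of all members: the lowest, median and highest animal were at 25.9, 35.6 and 56.8 TPM in controls and at 14.0, 27.8 and 45.9 TPM in HD* animals, a log2 difference of −0.35 (SE 0.20, adjusted p = 0.706). The lowest animal of all was HD* replicate 8, and the groups overlapped widely. *P2RY12* was at 37.6, 56.1 and 83.5 TPM in controls and 27.2, 41.6 and 85.4 TPM in HD* animals (log2 difference −0.27, SE 0.23, adjusted p = 0.714). *CSF1R* was at 43.1, 61.6 and 96.5 TPM in controls and 39.2, 52.3 and 73.1 TPM in HD* animals (log2 difference −0.22, SE 0.19, adjusted p = 0.712). *TMEM119* went the other way, from 0.849, 1.27 and 2.69 TPM in controls to 0.424, 1.80 and 4.52 TPM in HD* animals (log2 difference 0.24, SE 0.20, adjusted p = 0.712). Both the lowest and the highest *TMEM119* level of the study were in HD* animals.

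The 3 C1q chains, which start the classical pathway, gave log2 differences of 0.01 for *C1QA* (SE 0.23, adjusted p = 0.989), −0.06 for *C1QB* (SE 0.22, adjusted p = 0.914) and −0.04 for *C1QC* (SE 0.22, adjusted p = 0.945). *C1QA* was at 40.8, 80.4 and 139 TPM in controls (lowest, median, highest) and at 51.9, 73.7 and 126 TPM in HD* animals. *C3* was at 46.5, 81.6 and 142 TPM in controls and 56.3, 69.8 and 107 TPM in HD* animals, a log2 difference of −0.20 (SE 0.20, adjusted p = 0.730). For each of these 4 genes the HD* range lay within that of the controls. Of 38 other complement genes, from C1R and C1S to the regulators, 24 reached 1 TPM and 0 passed, with 22 lower and 2 higher in HD* animals and a median of −0.19. The member of that list with the smallest p was *CFI*, the protease that inactivates C3b (log2 difference −0.29, adjusted p = 0.706).

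For the *TREM2* receptor and its adaptor the differences were −0.01 for *TREM2* (SE 0.23, adjusted p = 0.988) and 0.02 for *TYROBP* (SE 0.26, adjusted p = 0.974). *AIF1* was at 25.6, 44.0 and 72.8 TPM in controls and 24.7, 41.6 and 89.7 TPM in HD* animals (log2 difference 0.04, SE 0.26, adjusted p = 0.953). *SPI1*, the master regulator of the myeloid lineage, was at 11.2, 15.7 and 27.6 TPM in controls and 11.6, 17.6 and 34.7 TPM in HD* animals (log2 difference 0.10, SE 0.18, adjusted p = 0.839). *ITGAM*, the alpha chain of CR3, was at 3.70, 5.10 and 8.51 TPM in controls and 2.85, 3.94 and 8.60 TPM in HD* animals (log2 difference −0.29, SE 0.18, adjusted p = 0.706), and *TLR2* at 0.870, 1.33 and 2.23 TPM against 0.578, 1.00 and 1.64 TPM (log2 difference −0.22, SE 0.13, adjusted p = 0.706). In each of them the animals of both groups were interspersed.

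Outside the members, 0 of 30 other microglia genes tested, 0 of 13 genes of disease-associated microglia and 0 of 13 inflammatory mediators passed between HD* animals and controls. Their median differences were −0.15, −0.11 and −0.01. The smallest p in these lists belonged to *CCL4*, a chemokine of activated microglia, with a log2 difference of 1.08 and an adjusted p of 0.706. *SALL1*, a transcription factor that keeps microglial identity, had a log2 difference of −0.34 (adjusted p = 0.706) and *AXL*, a receptor for apoptotic cells, one of −0.22 (adjusted p = 0.706).

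The HD* difference was also read within cohorts. In cohort 5, with 3 controls and 4 HD* animals, 31 of 35 members were higher in HD* animals and the median difference was 0.21, beside −0.06 over all genes. In cohort 7a, with 2 controls and 4 HD* animals, 32 of 35 were lower and the median was −0.37, beside −0.12 over all genes. Mean marker levels of other cells also had opposite signs in the 2 cohorts: HD* minus controls was −0.35 in cohort 5 and 0.41 in cohort 7a for striatal neuron, 0.17 and −0.41 for astrocyte, and 0.16 and −0.36 for oligodendrocyte markers (centred log2 scale), and their part in the result was not tested. The interaction of HD* with cohort was below 0 for 34 of 35 members, against 58.8% of all genes (41.2% above 0), with a median of −0.60 beside −0.06, and 0 members and 0 of 13637 genes (0%) passed an adjusted p under 0.05 (limma). At an unadjusted p under 0.05 there were 3 members, all below 0, against 2.16% of genes (1.72% below 0, 0.433% above). The 3 members with the smallest p were *ITGB2*, the common beta chain of leukocyte integrins (interaction −1.19 on the log2 scale, SE 0.45, adjusted p = 1.00), *CSF1R* (−0.87, SE 0.35, adjusted p = 1.00) and *SELPLG*, a selectin ligand of microglia (−0.81, SE 0.38, adjusted p = 1.00). *ITGB2* stood at 13.1, 8.80 and 8.77 TPM in the controls of cohort 5, all below its 4 HD* animals (13.1, 13.5, 19.9 and 19.99 TPM). In cohort 7a the controls were at 12.6 and 31.9 TPM and the HD* animals at 11.9, 18.2, 10.8 and 14.4 TPM. The high animal, control replicate 8, also had low striatal neuron markers (score −1.08), and the part of that animal in the result was not tested.

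Cohort itself, tested with group in the model, gave 0 members and 0 of 13637 genes (0%) at an adjusted p under 0.05. At an unadjusted p under 0.05 there were 3 of 35 members, against 8.36% of all genes. They were *CD74* (moderated F = 4.00, adjusted p = 0.540), *C1QB* (F = 3.59, adjusted p = 0.540) and *C1QC* (F = 3.25, adjusted p = 0.540) (limma). The mean over the members was −0.09 ± 0.28 in the 7 animals of cohort 5, −0.02 ± 0.34 in the 9 of cohort 7a and 0.13 ± 0.28 in the 6 of cohort 7b (mean ± SD).

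Between LD* animals and controls, 0 of 35 members and 0 of 13637 genes (0%) passed. The members were lower in LD* animals for 31 genes, and higher for 4, against 58.1% and 41.9% of all genes, with a median of −0.13 beside −0.03 over all genes. At an unadjusted p under 0.05 there were 0 members, against 2.84% of genes (2.54% lower, 0.293% higher). Higher members numbered 2 without control replicate 3, 7 without control replicate 5 or 6, and 8 without control replicate 8, with medians from −0.22 to −0.07 over all animals left out in turn. Striatal neuron markers were higher in LD* animals for 10 of 10 (median 0.39), oligodendrocyte markers lower for 10 of 10 (median −0.48) and astrocyte markers lower for 8 of 8 (median −0.23), with 0 passing, and their part was not tested. *TMEM119* was at 0.849, 1.27 and 2.69 TPM in controls and at 0.503, 0.921 and 1.60 TPM in LD* animals (log2 difference −0.36, SE 0.20, adjusted p = 1.00). *CD74* was at 72.9, 154 and 255 TPM in controls and 80.8, 118 and 152 TPM in LD* animals (log2 difference −0.36, SE 0.25, adjusted p = 1.00), and *P2RY13* at 6.15, 8.17 and 13.4 TPM against 5.22, 6.76 and 10.5 TPM (log2 difference −0.23, SE 0.16, adjusted p = 1.00). The groups overlapped for all 3 genes, and the lowest LD* animal was below every control for *TMEM119* and *P2RY13*. Within cohorts, the members were lower in LD* animals for 32 of 35 in cohort 7a (3 LD* and 2 controls) and 34 of 35 in cohort 7b (3 and 3), with medians of −0.43 and −0.23 beside 0.08 and −0.10 over all genes. Mean striatal neuron markers, LD* minus controls, differed by 0.64 in cohort 7a and 0.91 in cohort 7b (centred log2 scale). These controls included replicate 8 in cohort 7a (striatal neuron score −1.08) and replicate 6 in cohort 7b (−3.27). Their part in the within-cohort result was not tested.

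Between HD* and LD* animals, 0 of 35 members and 0 of 13637 genes (0%) passed, with 14 members higher and 21 lower in HD* animals, against 26.7% and 73.3% of all genes. The balance became 23 higher and 12 lower after TMM rescaling and 26 higher and 9 lower with cohort in the model. The shares of all genes in these alternative fits are not given here, so a shift of all genes cannot be told apart. Leaving out 1 animal, the balance lay between 11 and 20 higher, and the median went from −0.03 to 0.02 without LD* replicate 2, 0.03 without HD* replicate 7 and 0.0017 without HD* replicate 5. *TMEM119* had the smallest p, at 0.503, 0.921 and 1.60 TPM in LD* animals and 0.424, 1.80 and 4.52 TPM in HD* animals (log2 difference 0.61, SE 0.20, adjusted p = 0.937). It was the single member with an unadjusted p under 0.05, against 1.08% of all genes (0.33% higher, 0.748% lower). *CD68*, a lysosomal glycoprotein, was at 6.63, 9.84 and 12.2 TPM in LD* and 5.19, 7.53 and 10.9 TPM in HD* animals (log2 difference −0.27, SE 0.17, adjusted p = 0.937), and *C1QA* at 40.7, 65.7 and 84.2 TPM against 51.9, 73.7 and 126 TPM (log2 difference 0.32, SE 0.23, adjusted p = 0.937). For *TMEM119*, 7 of 8 HD* animals were above the highest LD* animal and HD* replicate 4 was the lowest of all.

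Over the 16 drinkers, the slope of each gene on daily intake was tested, and 0 of 35 members and 0 of 13637 genes (0%) passed. At an unadjusted p under 0.05 there were 2 members, against 6.65% of all genes (1.49% with a positive slope, 5.16% with a negative one). Slopes were positive for 16 members and negative for 19, against 27.5% and 72.5% of genes. Without LD* replicate 2, 26 were positive and the median slope went from −0.03 to 0.05, and without HD* replicate 7 it was 0.02. *TMEM119* had a slope of 0.30 on the log2 scale per g/kg (SE 0.12, adjusted p = 0.512, limma), but its slope was −0.02 with cohort and −0.03 with group in the model. The *CD68* slope was −0.18 (SE 0.08, adjusted p = 0.512) and that of *CD14* −0.13 (SE 0.07, adjusted p = 0.512).

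The last comparison was within the HD* group. VHD animals had higher levels of C1q, of the *TREM2* receptor and its adaptor, and of *AIF1* than HD animals in the fit of these 8 animals. The same 8 animals differed in striatal neuron markers, which were lower in VHD without overlap. With the mean of those markers as a covariate, or in a model of all 24 animals, 0 members passed. That mean ran from 0.57 to 0.85 in HD and from −0.74 to 0.01 in VHD animals, so the covariate fit cannot separate it from category. At an adjusted p under 0.05 (limma, 4 against 4), 8 of 35 members passed, all higher in VHD, beside 14.6% of all 13637 genes in either direction with 3.23% higher and 11.4% lower in VHD. In all, 32 of 35 members were higher in VHD, against 34.8% of genes (65.2% lower), with a median difference of 0.42 beside −0.17 over all genes. At an unadjusted p under 0.05, 15 members were higher and 0 lower, against 32.7% of genes (8.08% higher, 24.6% lower).

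**Figure D3:**
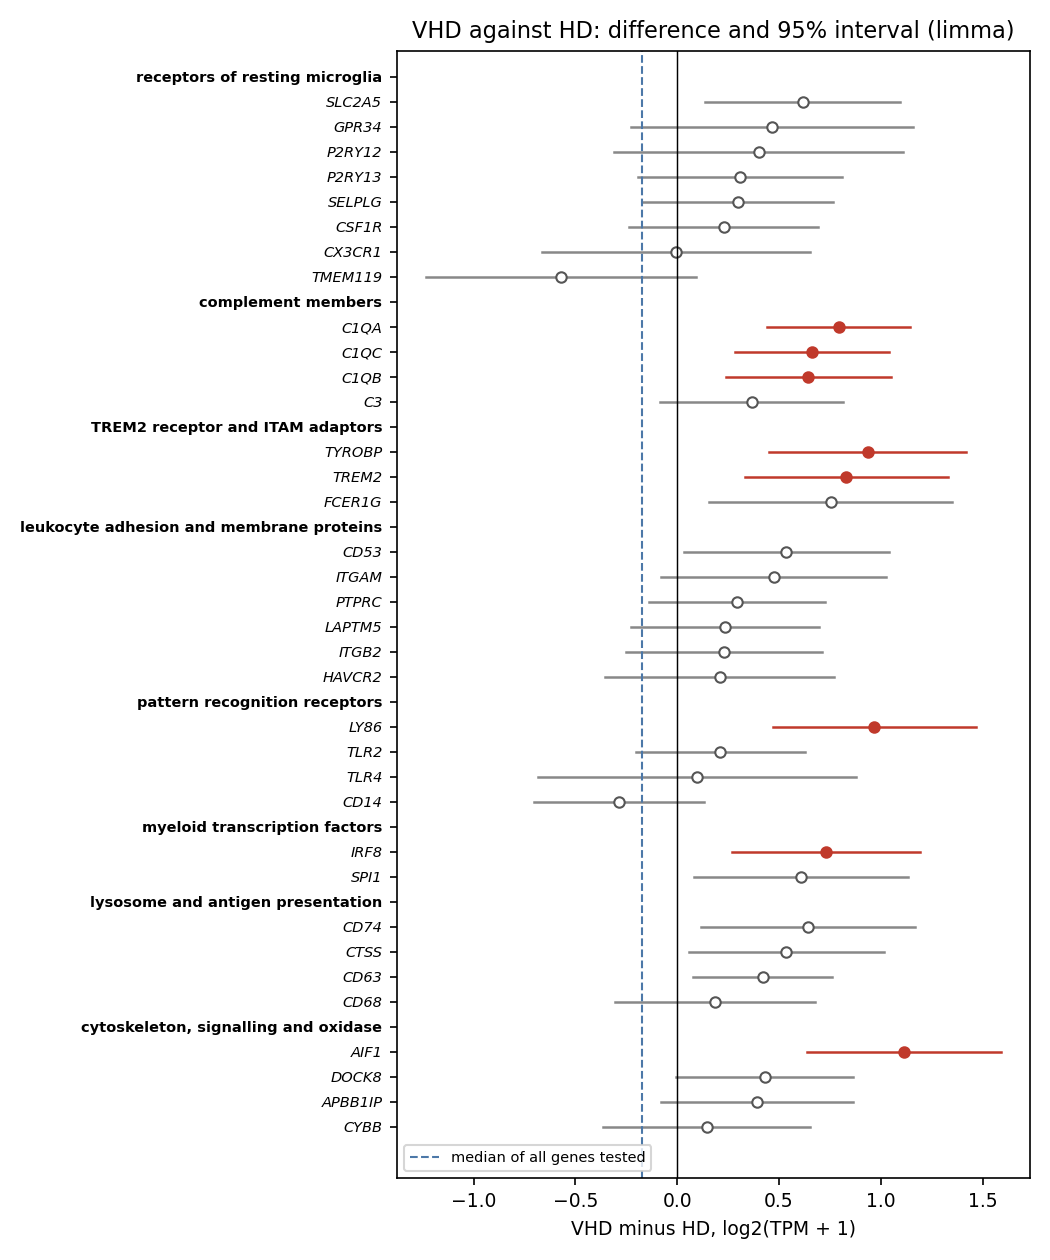
Difference in mean log2(TPM + 1) between 4 VHD and 4 HD animals for the 35 members, grouped by role, with 95% intervals from limma. Filled points mark the 8 members with an adjusted p under 0.05, and the dashed line marks the median of all genes (−0.17), with the points of *TMEM119* and *CD14* alone to its left.

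All 3 C1q chains passed. *C1QA* was at 55.9, 59.8, 64.9 and 51.9 TPM in the HD animals and at 82.5, 114, 126 and 87.4 TPM in the VHD animals (log2 difference 0.79, SE 0.16, adjusted p = 0.0109), *C1QB* at 108, 112, 108 and 91.5 TPM against 114, 175, 227 and 159 TPM (0.64, SE 0.19, adjusted p = 0.0383), and *C1QC* at 58.6, 66.9, 78.9 and 60.0 TPM against 75.0, 121, 114 and 115 TPM (0.66, SE 0.17, adjusted p = 0.0271). Every VHD animal was above every HD animal for *C1QA* and *C1QB*, while for *C1QC* HD* replicate 1, a VHD animal, lay below the highest HD animal. *C3* was at 56.3, 83.7, 57.7 and 63.1 TPM in HD and 57.4, 102, 107 and 76.5 TPM in VHD (0.37, SE 0.21, adjusted p = 0.237), with overlap.

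*TREM2* was at 16.01, 17.9, 16.1 and 11.2 TPM in HD and 18.0, 33.6, 35.1 and 27.3 TPM in VHD (log2 difference 0.83, SE 0.23, adjusted p = 0.0330). Its adaptor *TYROBP* was at 35.01, 59.7, 39.2 and 45.4 TPM in HD and 58.0, 78.5, 114 and 100 TPM in VHD (0.93, SE 0.22, adjusted p = 0.0191). *FCER1G*, the adaptor of Fc receptors, was at 10.7, 20.8, 18.9 and 12.6 TPM in HD and 15.5, 30.6, 34.6 and 29.3 TPM in VHD, and did not pass (0.75, SE 0.27, adjusted p = 0.0816). HD* replicate 1, the VHD animal with the highest intake, was the lowest VHD animal for all 3.

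*AIF1* differed most of all members, at 30.3, 39.0, 24.7 and 31.5 TPM in HD and 44.3, 66.7, 81.3 and 89.7 TPM in VHD (log2 difference 1.11, SE 0.22, adjusted p = 0.00965), with no overlap. *LY86*, the gene of MD-1, a partner of the Toll-like receptor homologue RP105, was at 14.9, 21.3, 12.5 and 13.3 TPM in HD and 20.6, 32.7, 39.5 and 33.3 TPM in VHD (0.97, SE 0.23, adjusted p = 0.0188), with 1 VHD animal below the highest HD animal. *IRF8*, a transcription factor required for microglial development, was at 4.63, 5.59, 4.10 and 4.04 TPM in HD and 5.90, 8.20, 9.25 and 10.1 TPM in VHD (0.73, SE 0.21, adjusted p = 0.0388), with no overlap. *SPI1* had a log2 difference of 0.61 (SE 0.24, adjusted p = 0.105). In 6 of 35 members (17.1%), against 5.39% of genes (17.9% with all VHD below all HD, 0 members), all VHD animals were above all HD animals: *AIF1*, *C1QA*, *C1QB*, *TREM2*, *IRF8* and *SLC2A5*, the fructose transporter GLUT5.

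**Figure D4:**
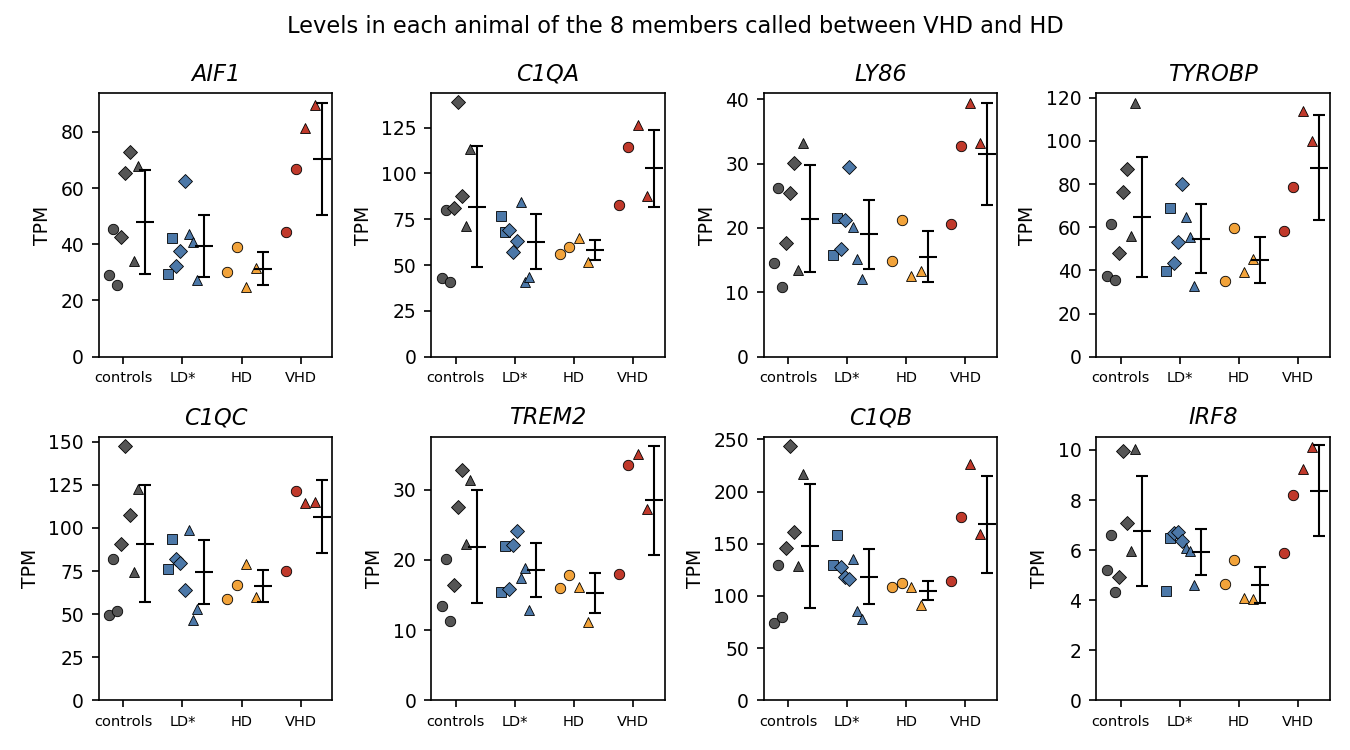
TPM of the 8 members that passed between VHD and HD, in each of the 24 animals, with marker shapes for cohort (square 4, circle 5, triangle 7a, diamond 7b) and mean ± SD of each category. VHD animals lie above most HD animals in every panel, and for *C1QA* controls run from 40.8 to 139 TPM, past both categories, while for *AIF1* the highest control (72.8 TPM) lies below 2 of the 4 VHD animals.

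Of the 8 genes in the group called receptors of resting microglia, 0 had an adjusted p under 0.05 (limma), and 1 (*SLC2A5*, a transporter) had an unadjusted p under 0.05. *CX3CR1* was at 28.5, 36.0, 27.1 and 25.1 TPM in HD and 26.4, 39.8, 45.9 and 14.0 TPM in VHD, a log2 difference of −0.01 (95% interval −0.66 to 0.65). *P2RY12* was at 48.7, 45.9, 32.1 and 29.8 TPM in HD and 37.2, 85.4, 76.6 and 27.2 TPM in VHD (0.40, 95% interval −0.31 to 1.11), and *CSF1R* at 43.6, 66.2, 48.8 and 43.4 TPM against 55.7, 72.7, 73.1 and 39.2 TPM (0.23, 95% interval −0.24 to 0.69). HD* replicate 8 was the lowest of the 8 animals for all 3 of these receptors and the highest for *AIF1*. *TMEM119* was at 4.52, 3.01, 1.63 and 1.87 TPM in HD and 1.73, 0.424, 1.65 and 2.32 TPM in VHD (−0.57, SE 0.30, adjusted p = 0.212). Whether the genes of this group differ from C1q in this comparison was not tested.

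Of the remaining roles, 0 of 6 adhesion and membrane proteins, 0 of 4 lysosomal and antigen presentation genes, and 1 of 4 genes of the cytoskeleton, signalling and oxidase (*AIF1*) passed. All members of these 3 roles had positive differences, from 0.14 for *CYBB*, the catalytic subunit of the phagocyte NADPH oxidase, to 1.11 for *AIF1*. *CD74* was at 67.5, 107, 88.9 and 87.5 TPM in HD and 94.4, 209, 103 and 167 TPM in VHD (0.64, SE 0.24, adjusted p = 0.0898). *CTSS* was at 3.77, 4.95, 3.55 and 2.98 TPM in HD and 4.78, 7.36, 7.10 and 4.79 TPM in VHD (0.54, SE 0.22, adjusted p = 0.115). Among pattern recognition receptors *LY86* passed and *TLR2*, *TLR4* and *CD14* did not, the last at 15.7, 24.9, 26.3 and 21.1 TPM in HD and 17.0, 20.5, 16.5 and 16.4 TPM in VHD (−0.29, SE 0.19, adjusted p = 0.319).

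Other genes of the same biology gave mixed directions, to be read against the 14.6% of all genes that passed (3.23% higher, 11.4% lower). The list of 30 other microglia genes tested also held neuronal ligands of microglial receptors. Of the 30, 6 passed, of which *BIN2* (0.87, adjusted p = 0.0182) and *MS4A7* (0.97, adjusted p = 0.0344), both genes of macrophages, were higher in VHD. The other four were lower: *CX3CL1*, the fractalkine that neurons present to *CX3CR1* (−1.17, adjusted p = 0.00418), *IL34*, a neuronal ligand of *CSF1R* (−0.66, adjusted p = 0.0105), *CD47*, a signal against phagocytosis carried by many cells (−0.95, adjusted p = 0.0253), and *CD86*, a co-stimulatory protein (−1.02, adjusted p = 0.0234). Of 24 other complement genes, 1 passed, *CSMD1*, a complement regulator of neurons (−0.81, adjusted p = 0.0378). Of 13 genes of disease-associated microglia, 6 passed, with *FTL*, *TSPO* and *LGALS3* higher and *LPL*, *CTSB* and *CTSD* lower in VHD, and of 13 inflammatory mediators 1 passed, *PYCARD*, the inflammasome adaptor (0.94, adjusted p = 0.0345). These genes were named after their values were seen.

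Levels of other cell types moved with this comparison. Of 10 striatal neuron markers, 9 passed, all lower in VHD, with a median difference of −1.12, and their sum was between 9266 and 10859 TPM in HD animals and between 3518 and 6257 TPM in VHD animals, without overlap. None of them was at 0 in any animal. Of 8 astrocyte markers, 2 passed, both higher in VHD (*S100B* and *GFAP*), and their sum was between 2187 and 3858 TPM in HD and between 4921 and 7817 TPM in VHD animals. Of 10 oligodendrocyte markers 1 passed (*MBP*, higher), and of the 5 perivascular macrophage markers tested 0 passed, with sums of 11.8 to 17.7 TPM in HD and 11.1 to 23.8 TPM in VHD. With the striatal neuron score as a covariate, a model chosen after seeing the data, 0 of 35 members and 0 of 13637 genes passed, and members were higher in VHD for 8 and lower for 27. The shares of all genes higher and lower in that fit are not given here. The score did not overlap between HD and VHD animals, so this fit cannot separate it from category.

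When 1 HD* animal was left out, between 2 and 11 members passed, beside between 476 and 4651 of all 13637 genes. In a single model of the 24 animals with 4 categories, the differences were the same but 0 of 35 members and 0 of 13637 genes passed, with an adjusted p of 0.0555 for *AIF1* and *IRF8* and 0.126 for *C1QB*. Within cohorts (2 against 2), 30 of 35 members were higher in VHD in cohort 5 (median 0.25, beside 0.0065 over all genes) and 33 of 35 in cohort 7a (median 0.55, beside −0.36). *AIF1* was higher in VHD by 0.65 in cohort 5 and by 1.58 in cohort 7a, *C1QA* by 0.74 and 0.85, and *TREM2* by 0.52 and 1.15.

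HD and VHD animals were each also set against the 8 controls they share, a comparison chosen after seeing the data. In HD animals 33 of 35 members were lower than in controls (54.6% of genes, 45.4% higher), with a median of −0.37 beside −0.03, 0 of 13637 genes (0%) passed, and 9 members had an unadjusted p under 0.05 (7.77% of genes, 5.54% lower and 2.23% higher), 8 of them lower. Striatal neuron markers were higher in HD animals than in controls for 10 of 10 (median 1.01, 0 passed), with a mean centred level of 0.69 against −0.29, and astrocyte markers lower for 8 of 8 (median −0.38, 0 passed), with −0.30 against 0.16. Their part was not tested. The smallest p was that of *SLC2A5*, at 9.61, 12.4 and 18.4 TPM in controls (lowest, median, highest) and 8.81, 10.2, 7.74 and 8.15 TPM in HD animals (log2 difference −0.54, SE 0.18, adjusted p = 0.582, limma), followed by *CTSS* (−0.49, SE 0.18, adjusted p = 0.582) and *ITGAM* (−0.53, SE 0.21, adjusted p = 0.582). In VHD animals 19 members were higher and 16 lower than in controls, against 22.1% and 77.9% of genes, with a median of 0.03 beside −0.21. Again 0 passed (0%), and 2 members had an unadjusted p under 0.05, both higher (26.1% of genes, 2.93% higher and 23.2% lower). The 3 with the smallest p were *AIF1* (0.60, SE 0.26, adjusted p = 0.164), *LY86* (0.59, SE 0.26, adjusted p = 0.168) and *SPI1* (0.40, SE 0.20, adjusted p = 0.201). Striatal neuron markers were lower in VHD animals than in controls for 7 of 10 (median −0.07) and astrocyte markers for 5 of 8 (median −0.08), with 0 passing.

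Over all 24 animals, the mean of the members was set beside those of other lists. It was correlated with the mean of the 30 other microglia genes at r = 0.90 (Spearman's rho 0.89), with astrocyte markers at 0.78 (rho 0.79), with perivascular macrophage markers at 0.68 (rho 0.62) and with oligodendrocyte markers at 0.30 (rho 0.30). It was correlated with T and B lymphocyte markers at −0.61 (rho −0.61) and with endothelial markers at −0.15 (rho −0.15). With striatal neuron markers it was correlated at −0.73 (rho −0.89), and at −0.83 without the 2 animals farthest from the median. Within groups of 8 animals this last value was −0.70 among controls, −0.84 for LD* animals and −0.85 for HD* animals. These are descriptions of 24 libraries whose values each add up to the same total.

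**Figure D5:**
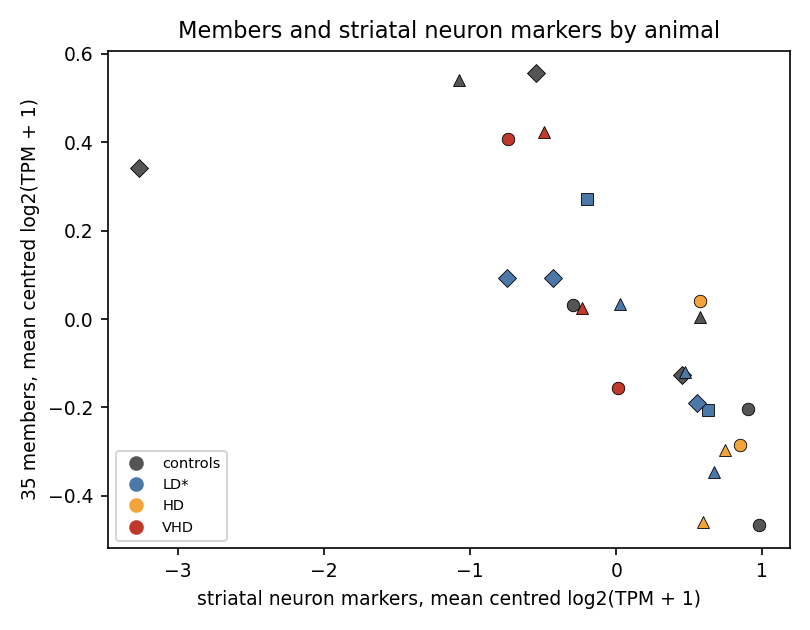
Mean centred log2(TPM + 1) of the 35 members (vertical) against that of 10 striatal neuron markers (horizontal) in each animal, coloured by category with marker shapes for cohort. The 4 HD animals lie at 0.57 or more on the horizontal axis and the 4 VHD animals at 0.01 or less, while control replicate 6 lies apart at −3.27.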

How the data were processed

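NAcc core RNA from 24 macaques was measured once per animal. According to the study's methods and the labels, polyA-selected libraries were aligned to the MacaM assembly with STAR 2.5.2b, counted on genes with HTSeq 0.6.1p1 and tested with DESeq2 by the authors. Paired, strand-specific reads are described in the methods, and unstranded single-end reads in the public design text. The deposited values are TPM made by the authors, although they are named as normalized counts; gene lengths used for them are not given in the sources used here. Of 17208 symbols, 27 had become dates. Depth cannot be read from TPM, so count tests were not run.

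Values were transformed to log2(TPM + 1) and fitted with limma 3.58.1 in R 4.3.3 (empirical Bayes with trend, two-sided, Benjamini-Hochberg, threshold 0.05) over 13637 genes. One model of 3 groups gave the main contrasts; VHD against HD used the 8 HD* animals, the intake slope the 16 drinkers, and the cohort interaction compared HD* with controls between cohorts 5 and 7a. Python 3.11.15 served for gene pairs, group values and scores (scipy 1.17.1, pandas 2.3.3, numpy 2.4.6) and for plots (matplotlib 3.10.9). The fits of HD* against controls and of VHD against HD, and the TMM factors, were tried on simulated data. Genes varied independently there, while the members are correlated, so that trial does not cover their joint changes. The 35 members, their roles and all other gene lists were chosen with earlier results of these data known, so no p-value is given for a score or a list. Full statistics were given to the 3 members with the smallest p in each comparison and, for HD* against controls, to 12 named microglia and complement genes; in other lists at most the 2 genes with the smallest p between HD* animals and controls were named, with those named by their calls between VHD and HD marked as chosen afterwards. Alternatives were pseudocounts of 0.1 and 8, no filter and a filter of 10 TPM, TMM rescaling (trimming 30% of M and 5% of A), array weights, only the groups compared, cohort, group or a marker score as covariates, cohorts 5 and 7a alone, and each animal left out in turn. Each replicate is 1 animal, and p-values measure the spread between animals.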

Additional observations from a re-analysis of the deposited data

Results flagged for a closer look

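In 125 groups of 4 to 8 animals, 1 value lay far from the others in 6, by the gap to its nearest neighbour over the whole range, which chance gives in about 1 group in 20. *AIF1* was at 62.6 TPM in LD* replicate 5, with the other 7 LD* animals between 27.2 and 43.5 TPM. *C1QC* was at 75.0 TPM in HD* replicate 1 of category VHD, with the other 3 VHD animals between 114 and 121 TPM. *CD14* was at 24.6 TPM in control replicate 7, with the other controls between 17.4 and 19.7 TPM, and at 20.5 TPM in HD* replicate 4, with the other VHD animals between 16.4 and 17.0 TPM. *CD68* was at 10.9 TPM in HD* replicate 6, with the other VHD animals between 7.40 and 7.55 TPM. *ITGAM* was at 8.60 TPM in HD* replicate 4, with the other 7 HD* animals between 2.85 and 5.24 TPM.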

How the results depend on the processing

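No paired analysis was possible because each animal belonged to 1 group and gave 1 library. For HD* against controls, LD* against controls, HD* against LD*, intake, cohort and the cohort interaction, 0 genes passed in every alternative run. VHD against HD gave between 1459 (no filter) and 2757 genes (cohort covariate) under other pseudocounts, filters, scaling and the cohort covariate, but 0 with the striatal neuron score as covariate and 0 in the model of 24 animals, both chosen after seeing the data. Leaving out 1 HD* animal gave between 476 and 4651 genes, and the members passing were 11 without replicate 1, 3 without 2, 4 without 3, 9 without 4, 3 without 5, 2 without 6, 2 without 7 and 6 without 8. With TMM rescaling 13 members passed, in a fit where between 1459 and 2757 of all genes did. Without a filter 5 members passed, beside 1459 genes. The causes were not tested.

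Between HD* animals and controls, small log2 differences changed sign. *C1QB*, *C1QC* and *TREM2* became 0.071, 0.094 and 0.12 with TMM rescaling, 0.12, 0.14 and 0.12 with cohort as covariate, 0.17, 0.20 and 0.14 in cohorts 5 and 7a alone, and 0.072, 0.098 and 0.17 with the striatal neuron score. *TREM2* became 0.075 with the oligodendrocyte score. With array weights *C1QA*, *TYROBP* and *AIF1* became −0.10, −0.037 and −0.10. Without control replicate 6 and HD* replicate 8, a choice made after seeing the data, *TREM2* became 0.025 and *TYROBP* −0.0039. Leaving out 1 animal gave −0.12 to 0.13 for *C1QA*, −0.19 to 0.054 for *C1QB*, −0.15 to 0.072 for *C1QC*, −0.13 to 0.11 for *TREM2*, −0.10 to 0.16 for *TYROBP*, −0.095 to 0.16 for *AIF1* and −0.025 to 0.20 for *SPI1*. Without HD* replicate 4, 6 of 35 members had an unadjusted p under 0.05 in this comparison, as did 2161 of all 13637 genes, with 0 adjusted (limma).

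Between VHD and HD, *C1QB*, *C1QC* and *TREM2* became −0.17, −0.084 and −0.15 with the striatal neuron score, which did not overlap between these categories. The intake slope of *TMEM119* became −0.018 with cohort and −0.030 with group as covariate, and r of *CD14* with *TLR4* became 0.038 centred on cohort means. TPM hold no read depth, so counting error limits the weakest members by an unknown amount.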
